A study of Mus musculus with 32 samples.

Results

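The 16 tumor arrays of this study were ordered by the level of 3 T cell genes, and the 5 T cell-rich tumors were set against the 5 T cell-poor tumors across all other genes. The score of an array was the mean of Cd3e, Cd2 and Cd5, each as the log2 signal minus the log2 75th percentile of that array. The 5 highest and the 5 lowest scores made up the 2 groups, 6 tumors ranked between them, and the series holds 32 arrays in all. Because the tumors were chosen by measured levels, every difference between the 2 groups and every rank correlation with the score is a description with no test.

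MCG 101 is a transplantable mouse sarcoma, and its cells were implanted in every animal of the study. Hosts were either wild type or EP2 knockout, lacking the prostaglandin E2 receptor encoded by Ptger2, and the genotype names the host and not the implanted cells. Tumor and tumor stroma were each profiled on one-colour Agilent arrays, with 8 arrays for each tissue and genotype, 4 of them labelled female and 4 male. The groups used here are wild-type tumor, knockout tumor, wild-type stroma and knockout stroma, and age, strain and time since implantation are not given in the sources used here. Nothing in the labels says that the animals came from separate litters or days, so p-values measure the spread between these arrays.

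T cells recognise antigen through a receptor that signals through the CD3 chains, and their number inside a tumor is widely used as a measure of the immune response to it. Cd3e encodes a CD3 chain, Cd2 an adhesion receptor shared with natural killer (NK) cells, and Cd5 an inhibitory receptor also carried by some B cells. Activated T cells and NK cells release interferon gamma, which acts on neighbouring cells to raise antigen presentation and the chemokines that draw in more T cells. Prostaglandin E2 is known to dampen T cell and NK cell activity, in part through EP2.

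Between 50.2% and 76.3% of probes were well above background on the tumor arrays, and the number of arrays limits the precision. Ptger2 itself was dim in tumor, well above background on 10 of 16 arrays, with levels from -5.86 to -3.68 in knockout hosts and from -6.77 to -4.07 in wild-type hosts. The 2 ranges overlapped, the implanted cells are the same in both hosts, and where its probe lies relative to the deleted part is not given in the sources used here, so Ptger2 does not check the genotype labels. The sex-linked genes of 2 tumor arrays, knockout tumor 95 and 99, and of 3 stroma arrays, wild-type stroma 9 and knockout stroma 95 and 99, went against the labelled sex. The first of these is among the T cell-rich tumors, and the main counts below are also given without both tumor arrays. The arrays labelled wild-type stroma 65 and 82 resembled tumor arrays.

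Cd2 had levels of 0.65, -0.13, -0.91, -1.52 and -1.67 in the T cell-rich tumors (knockout 81, 51, 15 and 95 and wild type 68, the order used throughout). In the T cell-poor tumors its levels were -2.57, -2.93, -3.14, -3.99 and -3.60 (wild type 82 and 4, knockout 12 and wild type 65 and 45, again the order used throughout). The groups did not overlap, and the means were -0.71 ± 0.97 against -3.25 ± 0.56 (SD, n = 5 and 5). Cd5 was likewise apart, at -0.41, -0.56, -1.42, -1.94 and -1.71 in T cell-rich and -2.83, -2.66, -2.65, -3.18 and -3.17 in T cell-poor tumors. Cd3e was less separated, with levels of -0.027, 0.47, -0.86, -0.22 and -0.46 against -0.77, -1.09, -1.20, -0.73 and -1.53, and knockout tumor 15 lay within the range of the T cell-poor tumors. Over the 16 tumors Cd2 and Cd5 followed each other (Spearman rho of 0.953), while Cd3e followed Cd2 (0.621) and Cd5 (0.512) less closely. A second, dimmer probe for Cd3e was well above background on 8 arrays and had a rho of 0.368 with the probe used. Cd3e lies on chromosome 9, Cd2 on chromosome 3 and Cd5 on chromosome 19.

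**Figure D1:**
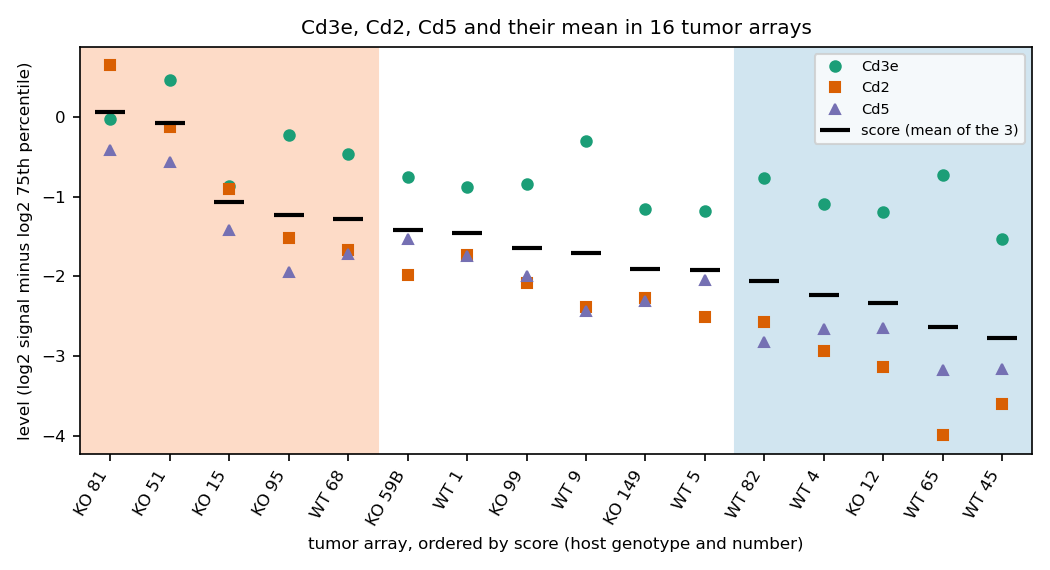
Level of Cd3e, Cd2 and Cd5 (log2 signal minus the log2 75th percentile of the array, y axis) in each of the 16 tumor arrays (x axis, ordered by score, KO for knockout and WT for wild-type hosts). Black bars are the score, and the shaded arrays are the 5 T cell-rich (left) and 5 T cell-poor tumors (right). Knockout tumors 81 and 51 stand above the other 14 arrays, and Cd3e spans a smaller range than Cd2 and Cd5.

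The scores formed no even series. Knockout tumors 81 (0.071) and 51 (-0.073) stood about 1 log2 unit above the next array, knockout tumor 15 (-1.06), and these 2 arrays lay farthest from the median score. The last T cell-rich array, wild-type tumor 68, had a score of -1.28, and the first array outside the group, knockout tumor 59B, -1.42. At the lower limit wild-type tumor 82 was inside the T cell-poor group at -2.06, and wild-type tumor 5 and 1 knockout tumor, both at -1.91, were just outside. Both limits thus fall between arrays of similar score.

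The T cell-rich group held 4 knockout hosts and 1 wild-type host, and the T cell-poor group 1 knockout host and 4 wild-type hosts. Sex labels were balanced, with 2 female and 3 male arrays in each group. The scans were not, since all 5 T cell-rich arrays were scanned on the first of 2 days, against 2 of the T cell-poor arrays. Genotype, scan day and T cell score therefore moved together. The mean score was -1.20 ± 0.84 in the 8 knockout and -2.0 ± 0.53 in the 8 wild-type tumors (SD), and -1.29 ± 0.91 on the first scan day (n = 9) against -2.0 ± 0.39 on the second (n = 7).

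Host genotype did not enter the choice of tumors and could be tested. In a limma fit over 25501 genes, with 1 mean per genotype and sex label, 0 genes (0%) differed between knockout and wild-type tumors at an adjusted p under 0.05. At an unadjusted p under 0.05 there were 920 genes (3.61%), and no adjusted p was below 0.975. The unadjusted count became 1577, 1419 and 540 without wild-type tumor 1, 4 and 5, 492 and 1450 without knockout tumor 51 and 95, 356 without knockout tumors 51 and 81 and 1660 without 95 and 99, with 0 genes called in each. Cd2 was 1.25 ± 0.49 higher in knockout tumors (log2 difference ± SE, adjusted p = 0.975 in the limma fit). The difference was 0.87 ± 0.33 for Cd5 and 0.30 ± 0.25 for Cd3e, with the same adjusted p. A genotype difference in the T cell genes was therefore not established at this number of arrays.

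Across the 25498 other genes that were well above background on at least 5 tumor arrays, 344 genes (1.35%) were at least 2-fold higher in the T cell-rich tumors with no overlap between the 5 and 5 arrays. Only 28 genes (0.11%) were at least 2-fold lower without overlap. The median difference of all genes was -0.037, and 45.5% of genes were higher. These shares rest on arrays selected on T cell genes and are given as a background for the lists below. A gene that passed the filter can still be near background on other arrays, where its level and difference are less certain. Among genes well above background on all 16 tumor arrays, 156 were higher by the same rule, against the 344. For low levels given below, such as those of Il2ra, Icos, Jchain, Gbp8, Cxcl13 and Ifng, the part of signal near background was not tested. By rank correlation over all 16 tumors 337 genes (1.32%) had a rho with the score of 0.7 or more, and 229 genes (0.898%) a rho of -0.7 or less. The counts depend on single arrays. When 1 T cell-rich array was left out and the next in rank took its place, the 344 genes became 100 without knockout tumor 81, 112 without knockout tumor 51, 113 without knockout tumor 15, 131 without knockout tumor 95 and 117 without wild-type tumor 68. The 28 lower genes became 15, 11, 9, 23 and 18 in the same order, and 134 without wild-type tumor 4, 79 without wild-type tumor 45, 57 without knockout tumor 12 and 43 without wild-type tumor 65. Without knockout tumors 95 and 99 there were 131 higher genes. When both knockout tumors 51 and 81 were left out, 95 genes were higher and 16 lower. The 337 positive rank correlations became 208 without knockout tumor 81 and 561 without knockout tumor 59B. The 229 negative ones became 117, 116, 604 and 365 without knockout tumors 81, 15, 95 and 59B, and 432 and 134 without wild-type tumors 4 and 65.

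**Figure D2:**
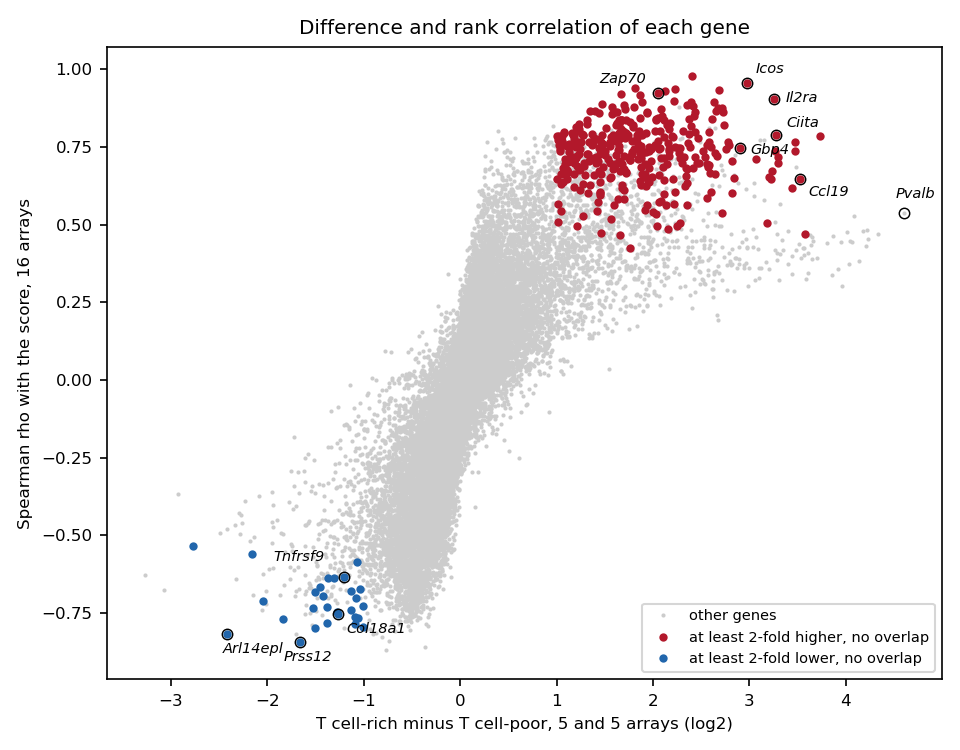
Each point is a gene. The x axis is the log2 difference, T cell-rich minus T cell-poor tumors (5 and 5 arrays), and the y axis the Spearman rho with the score over 16 tumors. Red and blue points are the 344 and 28 genes at least 2-fold apart without overlap, and circled genes are named in the text. Icos and Zap70 combine a high rho with a large difference, whereas Pvalb has a larger difference and a rho of 0.54.

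Genes of the T cell receptor complex and of signalling below it had higher means in the T cell-rich tumors, by amounts that varied. Of 24 listed genes 17 passed the filter, all 17 had higher means, and 10 were at least 2-fold higher without overlap. The median difference was 1.81, and 0.97 when knockout tumors 51 and 81 were left out. The count of 10 became 6 without wild-type tumor 4, 45 or 65 or knockout tumor 12. When tumors were scored by Cd3e alone the count was 2 and the median 1.37. In bulk tissue fewer T cells and less RNA per T cell cannot be told apart. Icos, the inducible costimulatory receptor, had the highest rho of the named genes (0.96) and levels of -0.55, -1.54, -1.83, -2.57 and -2.44 in the T cell-rich against -3.63, -3.68, -4.91, -5.78 and -5.79 in the T cell-poor tumors. Every T cell-rich tumor was above every T cell-poor one. Zap70, the kinase recruited to the activated receptor, was at 0.24, 0.43, -1.12, -1.39 and -1.07 against -1.98, -2.14, -2.73, -3.69 and -2.62, a difference of 2.05. Cd3d and Cd3g, further CD3 chains, differed by 1.81 and 2.44. In Cd3d the levels of 1.08 in knockout tumor 81 and 1.06 in knockout tumor 51 stood well above the other 3 T cell-rich tumors, which ran from -1.13 to -0.76. Cd6, a receptor related to Cd5 (1.82), and Skap1, an adaptor (1.89), had rho values of 0.94 and 0.89.

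Not all T cell genes followed. Cd247, the zeta chain of the receptor, differed by 0.17 with overlapping groups and a rho of 0.05. Without knockout tumors 51 and 81 the Cd247 difference was -0.49. Lck, the kinase that phosphorylates the CD3 chains, differed by 0.65. For the coreceptors, named after their values were seen, Cd8b1 was at 0.65, 0.97, -2.02, -1.65 and -2.03 against -2.80, -2.76, -2.64, -2.73 and -2.38, whereas Cd4 differed by 0.017 with a rho of 0.068. Cd4 is also carried by some mouse dendritic cells, and Cd8b1 marks cytotoxic T cells. Genes of T cell transcription and homing were mixed, with 14 of 16 higher, 2 apart by at least 2-fold without overlap and a median of 0.56 (0.19 without knockout tumors 51 and 81). Tcf7 (0.18), Lef1 (0.074) and Gata3 (0.32), transcription factors of T cell development, had means that differed little, and Ikzf1, the lymphoid factor Ikaros, differed most (2.47). The count of 2, Ikzf1 and Satb1, became 0 without any 1 of the 5 T cell-rich arrays (knockout tumors 81, 51, 15 and 95, wild-type tumor 68), and 1 without wild-type tumor 4, 45 or 65 or knockout tumor 12.

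All 16 entering genes of cytotoxic and NK cells had higher means, 8 of them by at least 2-fold without overlap. Their median difference was 2.04, and 1.26 without knockout tumors 51 and 81. Ifng, interferon gamma itself, was at 0.31, 0.79, -2.07, -2.53 and -2.97 in the T cell-rich and -2.83, -2.95, -5.53, -5.59 and -3.80 in the T cell-poor tumors. Its difference of 2.85 rested mainly on knockout tumors 81 and 51, the groups overlapped, and without these 2 arrays it was 1.44. Nkg7, a granule membrane protein of cytotoxic cells, did not overlap (1.64, 2.23, -0.80, -0.63 and 0.011 against -1.04, -1.08, -1.97, -2.21 and -1.52). Gzma and Gzmb, the granule proteases, differed by 1.67 and 2.38 with overlap. The count of 8 became 4 when any 1 of the 5 T cell-poor arrays (wild-type tumors 82, 4, 65 and 45, knockout tumor 12) was left out. With tumors scored by Cd3e alone the count was 1 and the list median 1.65. Gzma and Gzmb were high in knockout tumors 81 and 51 and in wild-type tumor 68 (Gzmb at 1.11, 2.33 and 0.68) and lower in knockout tumors 15 and 95 (-1.29 and -1.69). Prf1, perforin, differed by 0.60. Klrb1a, an NK cell receptor, was not well above background on any T cell-poor array and was at least 2.38-fold higher in the T cell-rich tumors. An at-least fold sets the mean of the brighter group against the lowest signal that counted as above background, or the dim probe's own value where that was higher.

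Regulatory T cells and checkpoint genes gave a similar picture with exceptions. Of 8 regulatory T cell genes 7 were higher, 5 of them at least 2-fold without overlap, and the median was 1.61. The count of 5 became 3 when any 1 array of either group but wild-type tumor 82 was left out. Scored by Cd3e alone, the count was 0 and the median 1.10. Il2ra and Il2rb, interleukin 2 receptor chains also used by activated effector cells, had rho values of 0.90 and 0.90. Il2ra was at -1.81, -2.32, -2.48, -3.30 and -2.54 against -4.36, -4.91, -6.01, -6.59 and -6.83. The T cell-poor levels of Il2ra may include signals near background, so the size of its difference is uncertain. Foxp3, the transcription factor that defines the lineage, differed by 0.84, and its groups overlapped (rho of 0.27). Tnfrsf9, the costimulatory receptor 4-1BB, went the other way at 1.04, 0.92, 0.95, 0.46 and 0.57 against 3.65, 1.27, 1.13, 2.52 and 1.39. Among 10 checkpoint receptors and ligands 9 were higher (median 1.34, and 0.78 without knockout tumors 51 and 81), and 1, Cd86, was apart without overlap by at least 2-fold. That count was 0 without any 1 of the 5 T cell-rich arrays (knockout tumors 81, 51, 15 and 95, wild-type tumor 68) and 3 without wild-type tumor 82. Pdcd1, encoding PD-1, differed by 1.67, Havcr2 (TIM-3) by 1.59 and Lag3 by 1.09, each with overlap. Nt5e, the ectoenzyme CD73 that forms adenosine, was lower (-0.93).

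Chemokines that attract T cells, and their receptors, were higher in 12 of 12 entering genes, with 3 at least 2-fold higher without overlap. The median was 1.98 (1.13 without knockout tumors 51 and 81, 1.29 without 81 alone). The count of 3 became 1 without knockout tumor 81, 51, 15, 95 or 12 or wild-type tumor 4, 65 or 45, 2 without wild-type tumor 68 and 5 without wild-type tumor 82. Cxcl9, a ligand of the receptor Cxcr3 on activated T cells, was at 4.49, 4.64, 2.55, 2.20 and 2.48 against 2.02, 1.41, -0.83, -0.36 and 1.25. Its lowest T cell-rich value, in knockout tumor 95, was just above wild-type tumor 82, the highest of the T cell-poor tumors. Cxcl10, which binds the same receptor, overlapped (4.72, 5.45, 2.52, 1.87 and 2.14 against 3.24, 1.60, 0.12, 0.11 and 1.41). Cxcl16 (1.57) and Ccl17 (2.0) overlapped as well. Ccl19, made by lymph node stroma to guide T cells and dendritic cells, was well above background on all 5 T cell-rich arrays and on none of the T cell-poor arrays, and was at least 5.55-fold higher. Its levels were -0.49, -2.55, -2.34, -4.32 and -3.63 against -5.43, -7.73, -6.45, -6.68 and -4.66, and the 6 tumors between ran from -7.24 to -1.88.

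Other lymph node stroma genes were high in a few arrays. Of 10 entering genes 7 were higher and 2, Ccl19 and Ltb, apart without overlap (1 when any 1 array of either group was left out), with a median of 1.70. The median was 0.64, 0.87 and 0.91 without knockout tumor 81, 15 and 12, 0.62, 0.63, 0.75 and 1.11 without wild-type tumor 65, 4, 45 and 82, 0.43 scored by Cd3e alone and 0.51 centred within genotype and sex. Wherever levels were centred, the score was computed again and the tumors were ranked anew. Within genotype and sex, 3 T cell-rich and 3 T cell-poor arrays stayed in their groups. Cxcl13, the chemokine of B cell follicles, was at 0.75, -6.11, -0.58, -4.73 and -4.51 in the T cell-rich tumors, so that knockout tumors 81 and 15 alone stood high within that group, and the T cell-poor tumors were at -4.85, -7.88, -5.64, -6.60 and -6.82. Ccl21a, which acts with Ccl19, was similarly at 0.25, -4.80, -0.38, -3.30 and -4.23, but was also high in knockout tumor 99 (1.48) and wild-type tumor 1 (-0.84), which ranked between. Glycam1, a ligand on high endothelial venules, differed by 0.65.

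**Figure D3:**
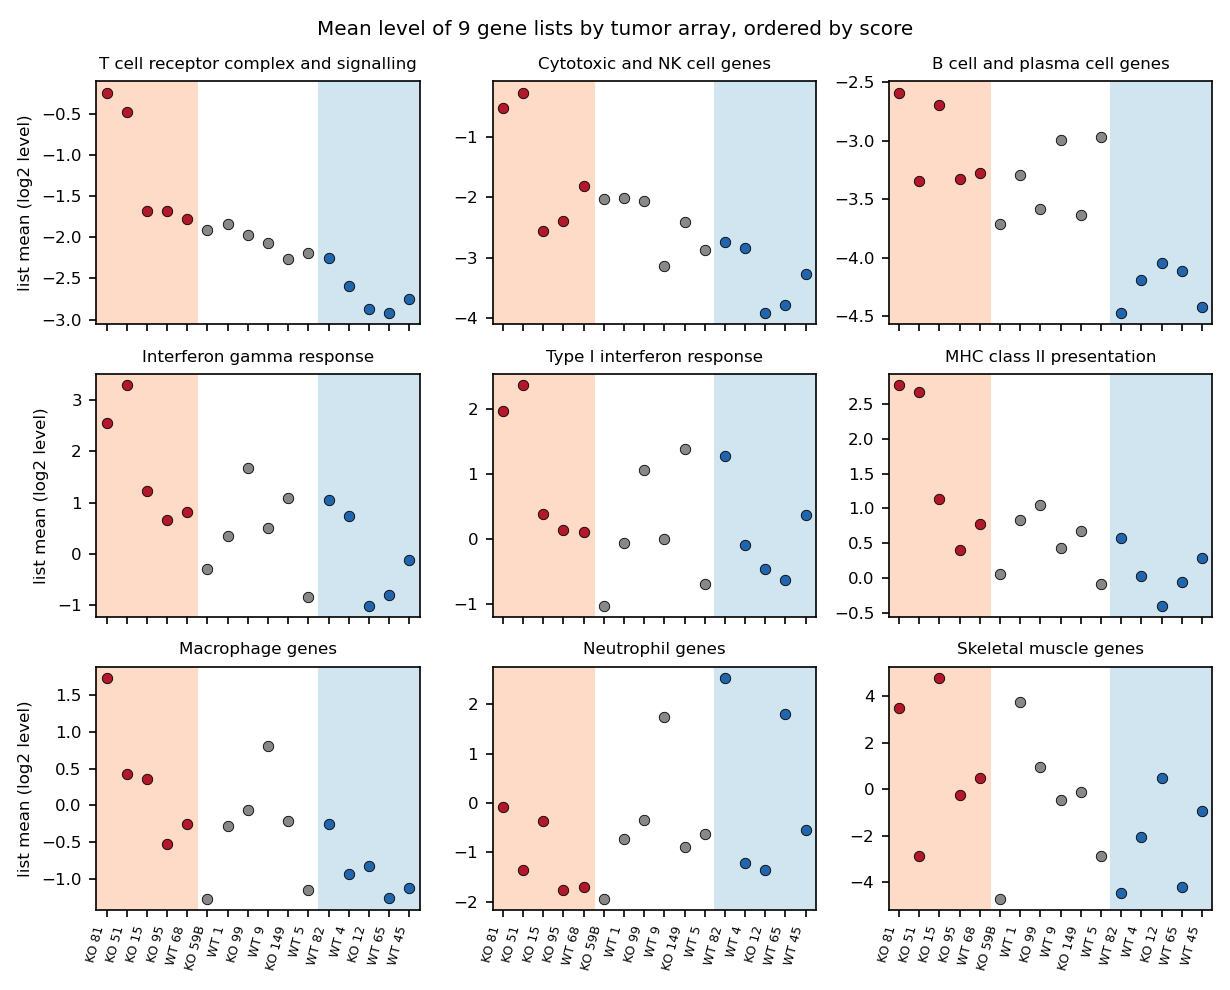
Mean log2 level of 9 gene lists (y axis, a separate scale for each panel) in each tumor array (x axis, ordered by score). Red, grey and blue points are the 5 T cell-rich, 6 intermediate and 5 T cell-poor tumors. T cell receptor genes are higher at high scores, interferon lists are highest in knockout tumors 81 and 51, and skeletal muscle genes are highest in knockout tumors 15 and 81 and wild-type tumor 1.

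Promoters of interferon gamma targets are known for the GAS element and for the ISRE, which interferon regulatory factors bind. Promoters of the interferon gamma list are shown because Ciita and Gbp4 of this list are among the 15 largest differences and its list mean was highest in the 2 tumors of highest score. Of its 17 entering genes 9 had a promoter in the RefSeq table (GRCm38.p6), a stretch of 300 bases that runs from upstream of the start of the gene to just past it. Irf1 and Irf8 have 2 promoters there, of which the first was used. The GAS motif searched was TTCNNNGAA, which reads the same on both strands, and the ISRE motif was GAAANNGAAA or, on the other strand, TTTCNNTTTC. GAS matches were found in 5 of the 9 promoters (55.6%) and ISRE matches in 7 (77.8%), with both in 3. Over all 27025 promoters of the table the shares were 8.47% and 3.49%, and over the tested genes 7.22% and 3.18%. The type I interferon list, with 14 promoters there, had 21.4% with a GAS and 64.3% with an ISRE match. For MHC class II genes (8 promoters) the shares were 0% and 12.5%, and for T cell receptor genes (9 promoters) 11.1% and 0%. Of the 344 higher genes 207 had a promoter there, 9.18% with a GAS and 10.1% with an ISRE match. A match describes these letters and is not a site of binding. The 5 promoters with a GAS match follow, 5′ to 3′ on the plus strand, with GAS and ISRE matches in capitals.
Irf1: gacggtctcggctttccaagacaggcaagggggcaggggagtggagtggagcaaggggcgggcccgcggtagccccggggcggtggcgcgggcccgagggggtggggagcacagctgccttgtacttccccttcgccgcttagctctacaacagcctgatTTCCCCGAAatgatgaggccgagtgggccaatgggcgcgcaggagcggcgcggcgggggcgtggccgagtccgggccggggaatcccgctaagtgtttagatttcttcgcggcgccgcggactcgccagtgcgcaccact
Irf8: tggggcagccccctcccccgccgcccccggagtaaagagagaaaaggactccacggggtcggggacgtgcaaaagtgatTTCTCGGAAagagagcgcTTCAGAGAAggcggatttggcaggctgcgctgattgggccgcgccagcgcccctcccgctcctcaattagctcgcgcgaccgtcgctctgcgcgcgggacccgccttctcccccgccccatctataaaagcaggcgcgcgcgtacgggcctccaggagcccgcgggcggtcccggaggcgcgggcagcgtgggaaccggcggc
Gbp5: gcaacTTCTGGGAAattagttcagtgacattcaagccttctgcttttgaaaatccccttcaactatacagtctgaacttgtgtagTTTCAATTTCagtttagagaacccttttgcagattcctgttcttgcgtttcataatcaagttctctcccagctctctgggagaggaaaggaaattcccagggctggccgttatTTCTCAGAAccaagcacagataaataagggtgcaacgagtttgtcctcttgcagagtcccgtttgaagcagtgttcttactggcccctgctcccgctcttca
Igtp: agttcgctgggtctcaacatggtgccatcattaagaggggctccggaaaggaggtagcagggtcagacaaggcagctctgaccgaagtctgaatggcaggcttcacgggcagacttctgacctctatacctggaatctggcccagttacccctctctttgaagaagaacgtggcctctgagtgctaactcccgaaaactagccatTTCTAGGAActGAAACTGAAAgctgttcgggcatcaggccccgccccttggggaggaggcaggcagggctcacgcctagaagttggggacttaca
Irgm2: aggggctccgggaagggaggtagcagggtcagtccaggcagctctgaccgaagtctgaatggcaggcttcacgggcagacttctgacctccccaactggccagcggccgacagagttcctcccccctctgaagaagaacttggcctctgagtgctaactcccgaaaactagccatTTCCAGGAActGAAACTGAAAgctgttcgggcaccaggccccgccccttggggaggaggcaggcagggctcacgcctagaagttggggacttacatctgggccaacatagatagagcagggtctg
They span chr11:53769764-53770063 (Irf1), chr8:120736108-120736407 (Irf8), chr3:142496684-142496983 (Gbp5), chr11:58199306-58199605 (Igtp) and chr11:58214727-58215026 (Irgm2). In Igtp and Irgm2, 2 neighbouring genes of the immunity-related GTPase family, a GAS match is followed, without overlap, by an ISRE match that starts 11 bases further on. Irf8 holds 2 GAS matches and no ISRE match, and Gbp5 holds 2 GAS matches and 1 ISRE match.

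Of the 17 interferon gamma genes 16 were higher in the T cell-rich tumors, and 3 of them, Ciita, Irf8 and Gbp4, at least 2-fold without overlap. The list median was 1.79, but 0.43 without knockout tumors 51 and 81 (0.97 without 51 and 1.16 without 81 alone). Ciita, the master regulator of MHC class II genes, was at 2.12, 2.16, 1.34, 0.18 and 0.31 against -1.91, -0.34, -3.26, -3.03 and -1.74, the largest difference of the list (3.28). Gbp4, a guanylate-binding protein, was at 1.57, 2.49, 0.50, -0.31 and -0.33 against -1.18, -0.50, -3.54, -3.80 and -1.59. In both genes wild-type tumor 4 was the highest of the T cell-poor tumors and lay nearest to knockout tumor 95 and wild-type tumor 68. The count of 3 became 0 when any 1 of the 5 T cell-rich arrays was left out, knockout tumor 81, 51, 15 or 95 or wild-type tumor 68, and 5 without wild-type tumor 82. Irf8, a transcription factor of myeloid and lymphoid cells, was at 2.60, 2.37, 1.40, 0.54 and 0.68 against 0.29, -0.21, -0.48, -0.90 and -0.80. The other genes whose promoters are printed overlapped, with differences of 0.70 for Irf1, 2.32 for Gbp5, 1.79 for Igtp and 2.01 for Irgm2. Igtp was at 4.92, 6.25, 3.25, 2.53 and 2.89 in the T cell-rich tumors, highest in knockout tumor 51, and at 3.23, 2.88, 1.31, 1.27 and 2.22 in the T cell-poor tumors. Irf8, Gbp5, Igtp and Irgm2 were named for their promoters after their values had been seen. Nlrc5, which drives MHC class I genes, differed by 1.27. Nos2, inducible nitric oxide synthase, was the member with a lower mean (-0.43). As a list mean, the interferon gamma genes ran from 0.65 to 3.28 in the T cell-rich and from -1.02 to 1.05 in the T cell-poor tumors, which overlapped.

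The type I interferon genes moved less with the score. All 18 entering genes had higher means, 0 were apart by at least 2-fold without overlap, and the median was 0.87. It was -0.16 without knockout tumors 51 and 81, so its direction rested on those 2 arrays, and 0.27 and 0.32 without 51 and 81 alone and 1.37 without wild-type tumor 82. Isg15, a ubiquitin-like interferon product, was at 5.08, 5.74, 2.94, 2.96 and 2.90 against 4.80, 2.90, 2.60, 2.96 and 3.94. Wild-type tumors 82, 65 and 45 had levels within the T cell-rich range. MHC class I genes were nearly level between the groups, with a median of 0.23 and 0 of 15 apart (-0.059 without knockout tumors 51 and 81). H2-K1 and B2m, the heavy and light chains, differed by 0.084 and -0.043, while Tap1, the peptide transporter, differed by 1.07 and Psmb8, an immunoproteasome subunit, by 1.15.

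All 10 genes of MHC class II presentation had higher means, with 3 apart by at least 2-fold without overlap and a median of 1.5 (0.40 without knockout tumors 51 and 81, 0.93 without 51 and 0.92 without 81 alone). H2-Eb1, a class II beta chain, was at 5.73, 5.43, 4.23, 3.33 and 3.55 against 2.81, 2.48, 1.20, 1.74 and 1.87. Cd74, the invariant chain that guides class II molecules, was at 5.29, 5.51, 3.90, 3.1 and 3.76 against 2.94, 2.74, 0.94, 1.81 and 1.57. In both genes knockout tumors 81 and 51 were highest, and knockout tumor 95 lay nearest to wild-type tumor 82. The count of 3 became 0 when any 1 of the 5 T cell-rich arrays (knockout tumors 81, 51, 15 and 95, wild-type tumor 68) was left out. H2-Ab1 (2.30) and H2-Aa (1.83) overlapped.

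Among myeloid lists the macrophage genes were higher and the neutrophil genes lower. Of 18 macrophage genes 16 were higher, 4 at least 2-fold without overlap, with a median of 1.29 (0.44 without knockout tumors 51 and 81). The count of 4 became 0 without any 1 of the 5 T cell-rich arrays (knockout tumors 81, 51, 15 and 95, wild-type tumor 68) and 8 without wild-type tumor 82, and the median 0.84 and 0.62 without knockout tumor 51 and 81. Adgre1, encoding F4/80, was at 2.40, 1.63, 0.31, 0.56 and 0.88 against -0.36, 0.15, -0.75, -0.97 and -0.33. Csf1r, the growth factor receptor of the lineage, differed by 0.76 without overlap and Cd68 by 0.43, whereas Marco, a scavenger receptor, differed by 2.64 with overlap. Arg1, arginase, differed by -0.39. In the monocyte list 7 of 10 were higher, with a median of 0.62 that was 0.02 without knockout tumors 51 and 81 and 0.12, 0.21 and 0.38 without 81, 51 and 15 alone, and Ccr2, the receptor that brings monocytes into tissue, was the member apart, at 0.61, -0.37, -0.45, -1.73 and -1.25 against -2.80, -2.73, -3.89, -4.06 and -3.04. Conventional dendritic cell genes were mixed, with 7 of 11 higher and a median of 0.34, and the member apart was Cd8a, which the T cell list also holds. Flt3 (0.34) and Batf3 (0.47) overlapped. Xcr1 and Clec9a, defining markers of 1 dendritic subset, did not pass the filter.

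Neutrophil genes were lower in 13 of 14 (median -1.14, and -0.60 without wild-type tumor 82), and 0 were apart without overlap. S100a9, a calcium-binding protein abundant in neutrophils, was at 4.32, 2.32, 3.34, 1.91 and 1.73 in the T cell-rich and 7.91, 2.81, 3.02, 7.21 and 4.33 in the T cell-poor tumors. Wild-type tumors 82 and 65 were high, the remaining T cell-poor tumors lay within or just above the T cell-rich range, and wild-type tumor 9, which ranked between, reached 6.70. All 3 were scanned on the second day, and with levels centred within scan day the list median was 0.11, on the other side of 0. That centring also changed the tumors compared, and 3 T cell-rich and 4 T cell-poor arrays stayed in their groups. Scoring by Cd3e alone gave a list median of 0.15. Mast cell and eosinophil genes were higher in 8 of 10 (median 0.84), led by Ear2 (1.84) and Cpa3 (1.62), with no member apart. Without knockout tumors 51 and 81 the median was 0.30, Ear2 0.55 and Cpa3 0.53, and the median was 0.15, 0.54 and 0.53 without knockout tumor 81, 15 and 95 and 0.44 without wild-type tumor 68.

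B cell and plasma cell genes were higher in 7 of 9 that passed the filter, with 4 apart and a median of 1.54 (1.34 without knockout tumors 51 and 81, and 0.44 after normexp background correction). The count of 4 became 2 when any 1 array of either group was left out, and the median 0.94 and 1.0 without wild-type tumor 45 and 65. With quantile scaling, with or without normexp correction, the count was 1. Scored by Cd3e alone it was also 1, with a median of 0.73. Jchain, which joins secreted antibody into polymers, was at -1.27, -1.73, -2.74, -1.26 and -2.0 against -7.67, -4.07, -3.82, -2.90 and -4.46. Cd79b, a chain of the B cell receptor, was at -0.80, -2.69, -1.65, -3.16 and -3.28 against -3.88, -4.57, -3.79, -4.98 and -4.53, highest in knockout tumors 81 and 15. Pax5, the B cell transcription factor, differed by -0.10 and Cd22 by 0.44, while Ms4a1 and Cd79a did not pass the filter. The list mean did not overlap between the groups (from -3.34 to -2.59 against from -4.48 to -4.05).

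**Figure D4:**
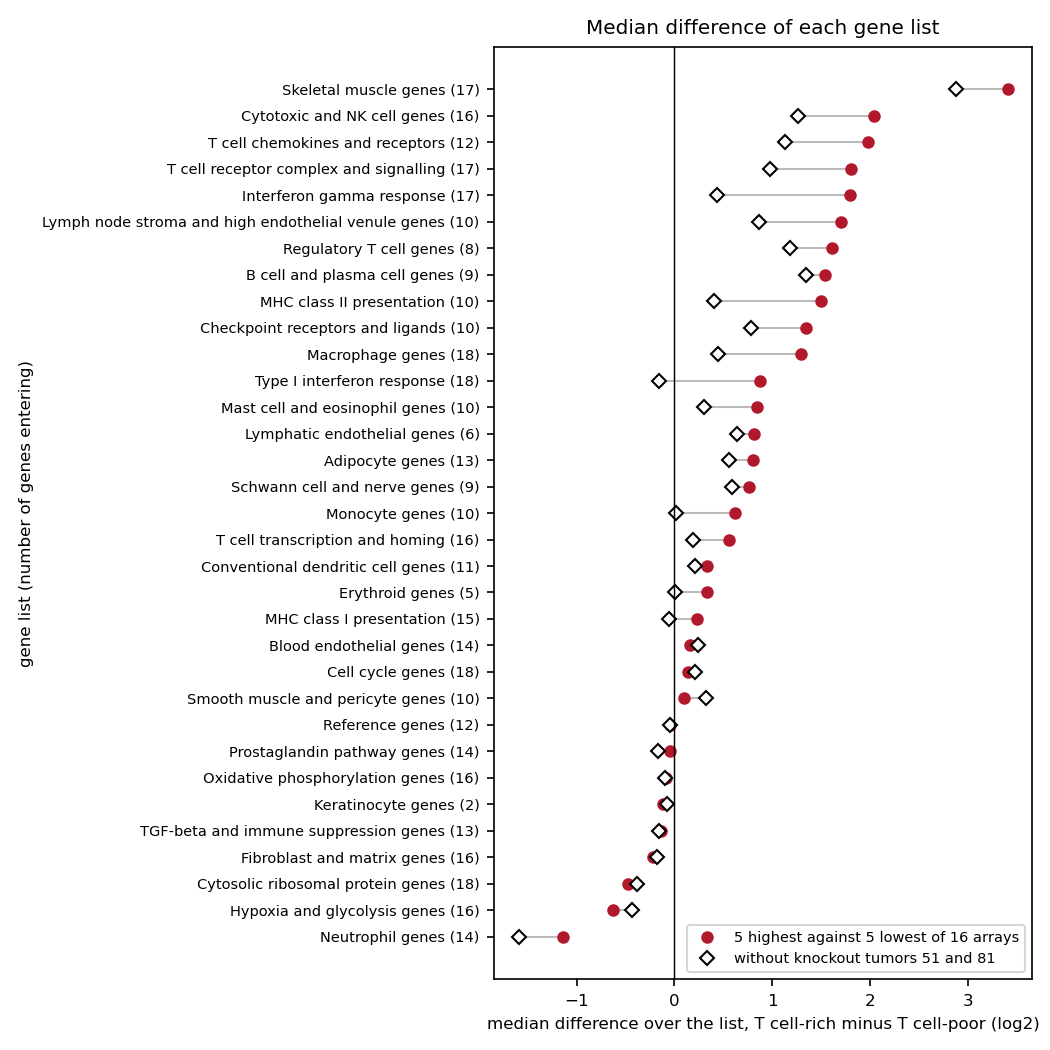
Median log2 difference over each gene list (T cell-rich minus T cell-poor tumors, x axis), with the number of entering genes in brackets. Filled circles use the 5 highest and 5 lowest of 16 arrays, and open diamonds leave out knockout tumors 51 and 81 and take the 5 highest of the remaining 14. Type I interferon genes move from 0.87 to -0.16, and B cell genes from 1.54 to 1.34.

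Genes of other tissues also differed in their means, mostly with overlap. All 17 skeletal muscle genes were higher, with a median of 3.40, yet 0 were apart without overlap. The median was 1.43 without knockout tumor 15, 1.66 without knockout tumor 81, 1.15 when scored by Cd3e alone and 1.23 with levels centred within genotype and sex. Pvalb, a calcium buffer of fast muscle fibres, was at 5.65, -3.61, 6.23, 0.53 and 0.49 against -5.04, -2.47, -0.65, -4.82 and -0.74, and Acta1, skeletal actin, at 6.57, -0.48, 6.64, 2.26 and 2.48 against -2.55, -0.98, 3.90, -2.74 and 2.06. The list mean was highest in knockout tumor 15 (4.78), wild-type tumor 1 (3.72) and knockout tumor 81 (3.50), and as low as -2.89 in the T cell-rich knockout tumor 51. Its rho with the score was 0.40. Ccl19, Cxcl13 and Ccl21a were high in some of the same arrays, and the part of surrounding tissue in those differences was not tested. Adipocyte genes were higher in 11 of 13 (median 0.80), with 1 apart (Cebpa, a transcription factor that myeloid cells also use, named after its value was seen), and Adipoq, adiponectin, was at 0.42 in knockout tumor 81 and not above -5.40 in the other 4 T cell-rich tumors. The adipocyte median was 0.031 without knockout tumor 81, 0.49 without knockout tumor 15, 0.45 without wild-type tumor 4 and 1.40 centred within scan day. Lymphatic endothelial genes (median 0.81, 6 genes) and Schwann cell genes (0.76, 9 genes) had no member apart. Without knockout tumor 81 these medians were 0.17 and 0.10, and without knockout tumor 15 0.21 and 0.25. The lymphatic median was also 0.40 without wild-type tumor 4 and 0.11 centred within genotype and sex, and the Schwann cell median 0.50, 0.36 and 0.18 without wild-type tumor 68, 65 and 82.

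Blood endothelial genes (0.16), smooth muscle genes (0.10), erythroid genes (0.33) and cell cycle genes (0.13) had medians nearer to that of all genes. The directions of the smooth muscle, erythroid and cell cycle medians were not stable. The erythroid median was -0.41, -0.19 and -0.32 without wild-type tumor 4, knockout tumor 15 and knockout tumor 81, 0.75 without wild-type tumor 65, 1.10 scored by Cd3e alone and 1.21 centred within scan day. The cell cycle median was -0.07 centred within scan day and -0.082 within genotype and sex, and that of smooth muscle -0.0022 and -0.01 without wild-type tumor 45 and 82. Leaving out 1 array moved the blood endothelial median between 0.05 (without knockout tumor 81) and 0.44 (without knockout tumor 12). Mki67, a proliferation marker, differed by 0.29 and Top2a, the topoisomerase of dividing cells, by 0.12. Fibroblast and matrix genes were higher in 7 and lower in 9 of 16 (median -0.22, but 0.092 with quantile scaling). The reference genes had a median of -0.043 (0.043 with quantile scaling), with Actb at -0.39, Gapdh at -0.34 and Tbp at -0.0068. Oxidative phosphorylation genes were at -0.085 and at 0.077 with quantile scaling. Of 10 keratinocyte genes 2 passed the filter, Krt10 and Trp63, and Krt5 and Krt14 did not.

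The prostaglandin pathway, which the host deletion touches, was mixed, with 7 genes higher and 7 lower (median -0.045, and 0.10 with quantile scaling). Ptger2 differed by 1.13 and Ptger4, the other Gs-coupled prostaglandin E2 receptor, by 0.26, both with overlap. Ptgs2, the inducible cyclooxygenase, differed by -0.79. Tbxas1, thromboxane synthase, was the member apart, at 0.58, 0.53, -1.24, -1.41 and -0.77 against -1.95, -1.68, -1.92, -2.66 and -2.04. In the list of TGF-beta and immune suppression genes 5 of 13 were higher (median -0.14, and 0.15 with quantile scaling), Tgfb1 differed by -0.065, and Il10ra, the interleukin 10 receptor chain of immune cells, was apart (2.07).

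Genes lower in the T cell-rich tumors were few, and 13 of them met the rule for naming. Prss12, a secreted protease, was at -2.25, -1.43, -2.96, -1.49 and -1.59 against 0.16, -1.41, -0.31, 0.54 and -0.43 and had a rho of -0.84. Col18a1, the collagen that holds endostatin, was at 3.41, 4.34, 3.02, 4.26 and 4.31 against 5.33, 5.29, 5.06, 5.52 and 4.47. Nrn1, neuritin, was at -0.074, 1.76, 0.68, 1.70 and 1.61 against 3.22, 2.73, 2.60, 2.56 and 2.08, lowest in knockout tumor 81. Arl14epl was lower too, but was well above background on 1 T cell-rich array against all 5 T cell-poor arrays, so its difference is not given. The remaining named genes were Snora34, a small nucleolar RNA (-1.46), Plppr3 (-1.28), Fam71f2 (-1.13), Adgrv1, an adhesion receptor (-1.08), Rnf125, a ubiquitin ligase (-1.01), and the near-identical pair Selenbp1 (-1.07) and Selenbp2 (-1.04), whose probes may share signal. Fam71f2 was not lower under every setting, with 0.23 when tumors were scored by Cd3e alone and 0.042 with levels centred within scan day.

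Hypoxia and glycolysis genes were lower in 16 of 16, with a median of -0.62 (-0.44 without knockout tumors 51 and 81) and 1 member apart. That member was Ankrd37, a target of hypoxia-inducible factor, at 1.04, 1.80, 0.96, 1.82 and 1.21 against 3.55, 2.04, 2.60, 3.13 and 2.02. Adm, adrenomedullin (-1.46), Car9, carbonic anhydrase 9 (-1.23), Ndrg1 (-0.90) and Vegfa (-0.75) overlapped. Car9 was narrow in the T cell-rich tumors (0.22, 0.29, 0.37, 0.62 and -0.14) and wide in the T cell-poor ones (2.41, 1.20, 1.80, 1.76 and 0.32), where wild-type tumor 45 was as low as the T cell-rich tumors. The list median was -0.12 with levels centred within scan day and 0.00071 when tumors were scored by Cd3e alone. Cytosolic ribosomal protein genes were lower in 18 of 18 (median -0.48), with 0 apart and a rho of the list mean of -0.72. This difference was nearly gone with quantile scaling, at -0.053.

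The largest differences mixed T cell genes with others. Of the 15 named by size, Icos, Il2ra and Prkcq belong to T cell activation, Gbp8, Gbp4, Ciita and Serpina3f to interferon responses, and Clec10a to macrophages and dendritic cells. Prkcq encodes the kinase PKC-theta, which T cells and skeletal muscle both use, and was at -1.03, -3.22, -1.49, -4.81 and -3.99 against -7.59, -5.94, -6.18, -6.68 and -5.52. It was not well above background on any T cell-poor array (at least 4.74-fold higher), and in the tumors between it was highest in wild-type tumor 1 (-1.68), a tumor with high muscle genes. Clec10a, a lectin, was at 2.59, -1.15, 0.57, -1.57 and -1.53 against -3.54, -3.09, -2.97, -5.01 and -2.66. Gbp8 was at -0.88, 0.12, -1.98, -3.23 and -2.70 against -4.68, -3.77, -6.55, -5.82 and -4.34. Among the others of the 15, Cyp1b1, a cytochrome P450, differed by 3.44 and Htr7, a serotonin receptor, by 3.27. Nrg1, a growth factor, differed by 3.07 and Svep1, a matrix protein, by 2.84. Which cells of the tumor carried these transcripts was not tested. Rnase6, a ribonuclease of the pancreatic family, was at least 2.07-fold higher. Without knockout tumors 51 and 81 the difference was 1.35 for Gbp4, 1.85 for Gbp8, 2.67 for Il2ra and 2.50 for Clec10a.

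By rank over the 16 tumors the genes closest to the score included, after Icos, Cd6 and Zap70, Ptprcap, which encodes a protein bound to CD45 (0.92), and Abcg3, an ABC transporter (0.92), followed by Il2ra, Il2rb, Skap1 and Klrb1a. These correlations share the 16 arrays and the scaling of each array. Abcg3 was at -2.30, -2.16, -2.69, -2.61 and -2.86 against -4.51, -3.82, -4.45, -5.29 and -3.85. The lowest rho belonged to Sphk1, sphingosine kinase 1 (-0.87), at 3.37, 3.16, 3.41, 3.29 and 3.16 against 4.61, 3.74, 3.81, 4.23 and 3.85, a difference of -0.77. Clybl, a mitochondrial lyase (-0.86), and Sdsl, serine dehydratase-like (-0.84), followed, with differences of -0.37 and -0.74. Trpm4, a cation channel, Dbn1, an actin-binding protein, and Krt31, a hair keratin, each had a rho of -0.81, and Tulp2 of -0.80. The T cell receptor genes kept their order within each host genotype, with a rho of the list mean with the score of 0.98 in the 8 wild-type and 0.98 in the 8 knockout tumors. The interferon gamma list had 0.33 and 0.71, and the skeletal muscle list 0.62 and 0.14. Whether these values differ between genotypes was not tested.

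Array measures were set against the score. The share of probes well above background had a Pearson r of 0.0086 (adjusted permutation p = 0.972) and a Spearman rho of 0.147 (adjusted permutation p = 0.807). The permutation tests were two-sided over 16 arrays, with 100000 resamples. Adjustment was over 3 measures, the 75th percentile of the signal among them. The 75th percentile of the signal is subtracted, in log2, from each gene, so the score contains it with a minus sign. It had an r of 0.585 and a rho of 0.485, given as a description without a p-value. Without knockout tumors 81 and 51, the 2 extreme tumors, r was 0.268. Within groups it was 0.390 in wild-type tumors, 0.646 in knockout tumors, 0.707 on the first scan day (n = 9) and 0.246 on the second (n = 7). Outlier spots had an r of -0.0758 and a rho of -0.0676 (adjusted permutation p = 0.972 and 0.807). The part of signal strength in the differences between T cell-rich and T cell-poor tumors was not tested.

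Stroma gave a measure of the same genes in arrays that the choice of tumors did not use. Of the 16 tumors 15 had a stroma array of the same number, and whether a number marks 1 animal is not stated. Cd3e, Cd2 and Cd5 in stroma were not shown to follow the tumor score, with Pearson r values of 0.157, 0.173 and 0.158 (permutation p of 0.579, 0.537 and 0.572, each 0.579 after adjustment over 3 genes, n = 15). The Spearman rho values were 0.064, 0.168 and 0.164 (permutation p of 0.822, 0.550 and 0.559, each 0.822 after adjustment). Without the 2 extreme tumors r was -0.0756 for Cd3e, -0.0385 for Cd2 and 0.0671 for Cd5. Of the pairs, 6 had a tumor scanned on the second day. In these, stroma Cd3e was lower at higher tumor scores (r of -0.841, exact permutation p = 0.0389, n = 6). In the same 6 pairs r was -0.81 for Cd2 (exact permutation p = 0.0597) and -0.73 for Cd5 (exact permutation p = 0.125). These subset p-values were not adjusted for the number of genes and subsets examined. On the first day r for Cd3e was 0.2045 (n = 9). Within wild-type hosts r for Cd3e was -0.271 and within knockout hosts 0.350. The 5 stroma arrays paired with T cell-rich tumors had a mean of the 3 genes from -1.55 (number 81) to 0.53 (number 15), and those paired with T cell-poor tumors from -1.66 (number 82) to -0.00042 (number 4).

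**Figure D5:**
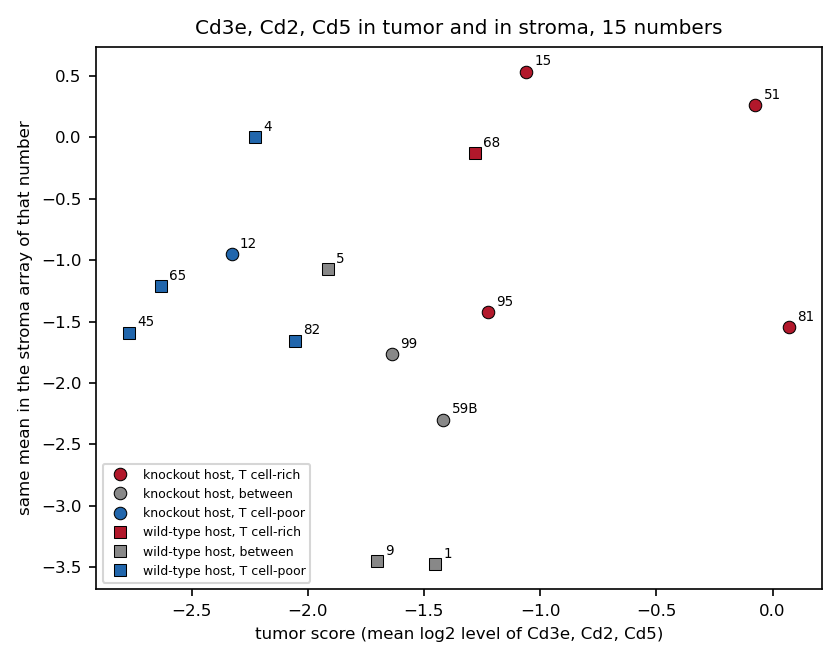
Mean log2 level of Cd3e, Cd2 and Cd5 in each stroma array (y axis) against the score of the tumor array of the same number (x axis), for 15 numbers. Circles are knockout and squares wild-type hosts, with T cell-rich tumors in red, T cell-poor in blue and the rest in grey. Numbers 1 and 9 have the lowest stroma values, and number 81 has the highest tumor score with a stroma value of -1.55.

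A limma fit of every stroma gene on the tumor score, over 26471 genes and 15 arrays, called 0 genes (0%) at an adjusted p under 0.05. At an unadjusted p under 0.05 there were 7100 genes (26.8%), and no adjusted p was below 0.143. The unadjusted count became 837 with genotype and sex as covariates, 2839 without wild-type stroma 65 and 82 and 3895 without number 65 alone, with 0 genes called in each. The slope, in log2 units of stroma level per log2 unit of tumor score, was 0.31 ± 0.46 for Cd2 (± SE, adjusted p = 0.668), 0.15 ± 0.24 for Cd3e (0.714) and 0.27 ± 0.44 for Cd5 (0.70). Without knockout stroma 51 the slope was -0.072 for Cd3e and -0.064 for Cd5. Among genes with a RefSeq symbol other than a predicted or clone name, the smallest p of positive slopes belonged to Hipk2, a nuclear kinase (0.93 ± 0.20), Krt36, a hair keratin (1.39 ± 0.31), Efhd1 (1.24 ± 0.28), Dennd2c (0.68 ± 0.16) and Ccdc69 (0.99 ± 0.24). For negative slopes, among the same genes, it belonged to Nectin3, an adhesion molecule (-0.79 ± 0.16), Rab15 (-1.21 ± 0.24), Castor1, an arginine sensor (-1.12 ± 0.23), Zfp57 (-0.88 ± 0.18) and Dbil5 (-0.69 ± 0.14), and all 10 had an adjusted p of 0.143. By list, the median slope was 0.18 for T cell receptor genes, 0.077 for cytotoxic genes and 0.38 for interferon gamma genes. It was 1.41 for skeletal muscle genes, 1.05 for adipocyte genes and -1.26 for cell cycle genes, with 0 members of these lists past the threshold. Wild-type stroma 65 and 82, which resembled tumor arrays, were kept in these fits and are paired with T cell-poor tumors. Slopes of the lists and of the 10 named genes are not given without these arrays, and their part in the slopes was not tested.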

How the data were processed

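Total RNA of tumor and tumor stroma was hybridised to one-colour Agilent arrays, 32 in all, after Cy3 labelling, per the labels' protocols. The authors' scanner intensities are background-subtracted processed signals, per the file headers, and Feature Extraction (Agilent) had version 10.7.3.1 in the submitters' notes. The deposited log2 values of the authors' value table were scaled to each array's 75th percentile and centred on each probe's median within a tissue, as set against the scanner values: 98.7% of 729120 tumor values came within 0.01. They served as an alternative only.

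From the intensities, log2 of the processed signal minus the array's 75th percentile over non-control probes was computed. Spots flagged as outliers were left out and spots of 1 probe averaged, giving 56605 probes and 45616 genes, each by its probe of highest mean over the tumor arrays. Genes well above background on at least 5 of 16 tumor arrays with at most 2 missing values entered. The number of arrays limits the precision.

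The members and gene lists were chosen with earlier results of these data known. Named genes were the 3 score genes, the 15 largest non-overlapping differences each way, the 10 highest and lowest rho, in each list the first 4 entering and the extremes, and in stroma the 5 smallest p each way. Other named genes were chosen after their values were seen. Genotype and stroma fits used limma 3.58.1 in R 4.3.3 with Benjamini-Hochberg adjustment, tested on simulated data. Permutation tests used numpy 2.4.6, with ranks from scipy 1.17.1. A median signal took the place of the mean signal for normexp (offset 50), since the files used here hold no column of the latter. Alternatives covered scaling, filters, thresholds, score genes, batches and arrays left out.

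Tumor and stroma share numbers, but whether a number marks 1 animal is not stated, so the main fits have no block.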

Additional observations from a re-analysis of the deposited data

Results flagged for a closer look

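Of 80 groups of 8 arrays examined for an array standing apart, 5 held one whose gap to the nearest other array exceeded 0.526 of the group's range, and chance alone gives about 5%. Wild-type tumor 5, which ranked just outside the T cell-poor tumors, had 76.3% of probes well above background, against 50.2% to 59.5% in the other wild-type tumors. The same array had 483 outlier spots, against 83 to 169. Knockout tumor 95, a T cell-rich tumor, had 75 outlier spots, fewer than the 141 to 175 of the other knockout tumors. In knockout tumor 81, the tumor of highest score, the mean of the conventional dendritic cell genes was -0.90, above the -2.55 to -1.90 of the other knockout tumors. In wild-type tumor 4, a T cell-poor tumor, the mean of the erythroid genes was -1.96, below the 0.89 to 3.44 of the other wild-type tumors.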

How the results depend on the processing

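Counts of genes moved far more than directions. The 344 higher genes became 1571 with overlap allowed, 126 at a 4-fold limit, 627 with 4 against 4, 60 with 6 against 6 and 9 with 8 against 8 arrays. They became 156 among genes above background on all 16 arrays, 174 scored by Cd3e alone, 131 by Cd5 alone, 95 without knockout tumors 51 and 81, 131 without 95 and 99, and 688 on scan day 1 alone (3 against 3). Leaving out 1 array gave 100 to 381. The 28 lower genes became 337 with overlap allowed, 73 at 1.5-fold, 4 at 4-fold, 63 with 4 against 4, 13 with 6 against 6, 5 with 8 against 8, 16 above background on all 16 arrays and 63 with no filter. They became 5 with normexp correction, 12 centred within slide, 6 scored by Cd3e alone, 16 without 51 and 81 and 265 on scan day 1. Leaving out 1 array gave 9 to 134.

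The 337 genes at a rho of 0.7 or more became 506 with quantile scaling, 511 with normexp correction, 206 above background on all 16 arrays, 61 scored by Cd3e alone, 186 by Cd5 alone, 553 centred within slide, 523 within scan day, 203 without 51 and 81, 773 in wild-type and 1019 in knockout hosts, 1086 on scan day 1 and 2263 on scan day 2. The 229 genes at -0.7 or less became 135 with quantile scaling, 134 with normexp correction, 152 in the authors' values, 13, 344 and 430 scored by Cd3e, Cd2 and Cd5 alone, 117 centred within genotype and sex, 1733 in wild-type and 1016 in knockout hosts, 639 without 95 and 99, 734 on scan day 1 and 3277 on scan day 2. Leaving out 1 array gave 208 to 561 and 116 to 604. Subsets hold fewer arrays, so a rho passes the limit more often there.

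The genotype and stroma fits called 0 genes under all settings run. No number recurs across the 2 genotypes within tumor, so the replicate block used all 32 arrays, with the tumor and stroma of a number as a pair, and also called 0 genes (827 at an unadjusted p under 0.05). The correlation of the score with the 75th percentile, which the score contains with a minus sign, was 0.593 scored by Cd2 alone and 0.696 by Cd5 alone, as a description. The share well above background had an r of -0.234 with Cd3e alone, and outlier spots 0.0641 with Cd5 alone. Directions turned for the neutrophil median (0.15 with Cd3e alone, 0.11 centred within scan day) and for Fam71f2 (0.23 and 0.042). Centring ranked the tumors again, so the groups compared were not the same. Within scan day 3 T cell-rich and 4 T cell-poor arrays were shared with the main groups, and within genotype and sex 3 and 3. Medians of type I interferon (-0.16) and MHC class I genes (-0.059) turned without 51 and 81, erythroid genes on leaving out 1 array (-0.41 to 0.75), cell cycle genes when centred within scan day (-0.07) or genotype and sex (-0.082), and lists near 0 as given above. Leaving out 1 stroma array gave slopes of -0.072 to 0.25 for Cd3e and -0.064 to 0.59 for Cd5, lowest without knockout stroma 51 and highest without knockout stroma 81. The causes were not tested. Scan day, the arrays without 95 and 99 and scan day 1 alone were alternatives chosen after seeing the data.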
